A study of Homo sapiens with 39 samples.

Results

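The genes described here are 6 transcription factors that drive epithelial to mesenchymal transition (EMT) and 4 cadherins, the cell adhesion proteins whose exchange accompanies it. They were taken by symbol from a table of 60671 gene identifiers: ZEB1, ZEB2, SNAI1, SNAI2, TWIST1, TWIST2, CDH1 (E-cadherin), CDH2 (N-cadherin), CDH3 (P-cadherin) and CDH13 (T-cadherin). All 10 members were found. Their levels were followed in 39 RNA sequencing libraries made from the human melanoma cell lines A375 and WM115. Unedited cells (WT) of each line stood beside clones without an enhancer region of SOX10, a gene for a factor that specifies pigment cells. The labels name the regions R1 and R4. In A375 there were 4 libraries of WT. The R1 deletion was present as clone 1.1 (3 libraries) and clone 1.2 (4 libraries), and the R4 deletion as clone 4.1 (4 libraries) and clone 4.2 (3 libraries). In WM115 the same scheme held 4 libraries of WT, 5 of clone 1.1 and 3 each of clones 1.2, 4.1 and 4.2. A further WM115 clone, 1.3 (3 libraries), is R1 by its title and R4 by its genotype and was kept apart. Libraries of a group repeat 1 clone, and nothing says that they came from separate cultures, so a p-value measures the spread between these libraries, which may be technical.

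ZEB, SNAI and TWIST proteins bind E-box sequences in DNA. In epithelia the ZEB and SNAI factors repress E-cadherin, and N-cadherin takes its place. In the melanocyte lineage the factors divide into pairs: ZEB2 and SNAI2 are found in differentiated pigment cells, whereas ZEB1 and TWIST1 mark melanoma cells that have moved away from that state. A change of weight from ZEB2 to ZEB1 is known as the EMT factor switch of melanoma.

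Values were TPM, a share of each library corrected for transcript length, so levels of different genes can be set side by side within a library. Read counts were not used and depth is unknown. The share of TPM from mitochondrially encoded genes ranged from 0.968% to 4.92% in A375 and from 4.71% to 19.4% in WM115. In WM115 the share was 13.7% to 15.6% in WT. It was 4.86% to 14.4% in clone 1.1, 8.75% to 11.8% in clone 1.2, 5.24% to 10.8% in clone 4.1, 4.71% to 12.7% in clone 4.2 and 8.31% to 19.4% in clone 1.3. Replicate 3 of WM115 clone 1.2 stood apart, with SOX10 at 9.56 TPM against 272 and 279 TPM in the other libraries of that clone. Most differences, the list counts and the transcript share printed for that clone are also given without it. Of 7 melanocytic markers, 3 reached 1 TPM in A375 (SOX10, MITF and PMEL) and 7 in WM115. Fibroblast markers (LUM, DCN, COL1A1, COL1A2, PDGFRA) summed to 1.72 to 14.3 TPM in A375 and to 371 to 862 TPM in WM115, where COL1A2 alone was at 365 to 857 TPM. KRT10 and KRT14 were the keratinocyte markers that reached 1 TPM, CD68 was the leukocyte marker that did, and of the endothelial markers PECAM1 did in both lines and CDH5 in WM115. In bulk RNA, fewer cells with a transcript and less of it per cell cannot be told apart.

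The upstream sequences of ZEB1 and ZEB2 are shown because ZEB1 rose and ZEB2 fell in clone 4.2 of WM115. RefSeq promoter windows (GRCh38.p14) were given for 4 of the 10 members (ZEB1, ZEB2, TWIST2 and CDH2). Each window was read over the 250 bases before a start site, 5′ to 3′, with the E-box core CACCTG or its reverse complement CAGGTG in capitals.
ZEB1, chr10:31318966-31319215, plus strand: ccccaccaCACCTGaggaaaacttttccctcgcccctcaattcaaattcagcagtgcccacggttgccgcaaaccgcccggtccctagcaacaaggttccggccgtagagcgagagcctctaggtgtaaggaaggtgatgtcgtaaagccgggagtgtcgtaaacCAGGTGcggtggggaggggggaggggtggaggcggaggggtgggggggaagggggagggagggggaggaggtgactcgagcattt
ZEB2, chr2:144520120-144520369, minus strand: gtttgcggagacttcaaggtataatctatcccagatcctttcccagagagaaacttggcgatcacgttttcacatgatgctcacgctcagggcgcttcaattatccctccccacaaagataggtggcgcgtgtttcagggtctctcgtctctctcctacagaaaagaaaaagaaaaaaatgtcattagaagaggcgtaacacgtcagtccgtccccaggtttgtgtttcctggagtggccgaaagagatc
This ZEB1 window held 2 matches and the ZEB2 window held 0. A match was present in 17.5% of all 35116 windows of this length (6143 windows). Of the other 6 ZEB1 windows, 1 held a single match, and the windows of TWIST2 and CDH2 held 0. A match is a description of letters and not of binding.

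In WT cells the lines carried different sets of factors. WM115 had more ZEB2 and SNAI2, and A375 had more ZEB1 and SNAI1, and TWIST1 overlapped between them. ZEB2 (ENSG00000169554, minus strand of chromosome 2) was at 16.1, 12.0, 13.2 and 15.0 TPM in A375 WT and at 119, 104, 89.8 and 118 TPM in WM115 WT. The libraries did not overlap, and the difference was 2.85 on the log2(TPM + 1) scale (SE 0.15, limma adjusted p = 3.98e-07). SNAI2 (SLUG) was at 5.41, 9.63, 7.63 and 4.50 TPM in A375 WT against 47.3, 49.7, 23.8 and 55.9 TPM in WM115 WT, a log2 difference of 2.52 (SE 0.29, limma adjusted p = 9.82e-05). ZEB1 (ENSG00000148516, plus strand of chromosome 10) ran the other way. It was at 28.9, 34.2, 26.4 and 21.6 TPM in A375 WT and at 11.9, 9.04, 14.01 and 6.04 TPM in WM115 WT, a log2 difference of -1.40 (SE 0.24, limma adjusted p = 0.00108). SNAI1 (SNAIL), at 25.1 to 45.3 TPM in A375 WT, was at 4.50 to 8.69 TPM in WM115 WT, a log2 difference of -2.28 (SE 0.22). TWIST2 was listed at 0 in each WM115 WT library and at 2.08 to 5.31 TPM in A375 WT. Of the 9 members tested, 5 were called (an adjusted p under 0.05 and a log2 difference of at least 1), against 22.7% of all 16126 genes tested in this comparison. The mitochondrial share was 1.21% to 4.92% in A375 WT and 13.7% to 15.6% in WM115 WT, so line and share cannot be told apart. With the share as a covariate 1 member was called. ZEB1 (-1.36, limma adjusted p = 0.331), SNAI1 (-2.46), SNAI2 (1.79) and TWIST2 (-1.44) kept their sign without a call.

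No cadherin was called between the WT lines. CDH2 was at 66.2, 50.9, 40.5 and 70.0 TPM in A375 WT and at 35.5, 33.3, 39.6 and 20.5 TPM in WM115 WT. Its log2 difference of -0.81 (SE 0.24, limma adjusted p = 0.0177) did not reach the minimum difference, though the libraries did not overlap. CDH13, a cadherin held in the membrane by a lipid anchor, was at 57.3 to 99.1 TPM in A375 WT and 81.7 to 110 TPM in WM115 WT, and the groups overlapped. CDH1 reached at most 0.19 TPM in any A375 library and 0.06 TPM in any WM115 library, and was listed at 0 in 13 of 18 and 19 of 21 libraries. It fell under the filter on low values (1 TPM or more in 3 or more libraries of a line) and was tested in neither line.

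By mean level, A375 WT ran from CDH13 (79.6 ± 22.6 TPM, SD, n = 4) through CDH2 (56.9 ± 13.7), SNAI1 (35.6 ± 8.32), TWIST1 (30.7 ± 5.26) and ZEB1 (27.8 ± 5.26) to ZEB2 (14.1 ± 1.82), SNAI2 (6.79 ± 2.30), TWIST2 (3.73 ± 1.56), CDH3 (0.64 ± 0.42) and CDH1. Each neighbour from CDH13 down to ZEB1 overlapped the next, whereas ZEB1 and ZEB2 did not overlap, nor did ZEB2 and SNAI2. WM115 WT ran from ZEB2 (108 ± 13.7 TPM, SD, n = 4) through CDH13 (99.8 ± 12.7), SNAI2 (44.2 ± 14.1), CDH2 (32.2 ± 8.23) and TWIST1 (25.1 ± 3.57) to ZEB1 (10.2 ± 3.45), SNAI1 (6.55 ± 1.83) and CDH3 (1.596 ± 1.5001), with CDH1 and TWIST2 last. There, ZEB2 overlapped CDH13, and SNAI2, CDH2 and TWIST1 overlapped in turn, while TWIST1 and ZEB1 did not.

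**Figure D1:**
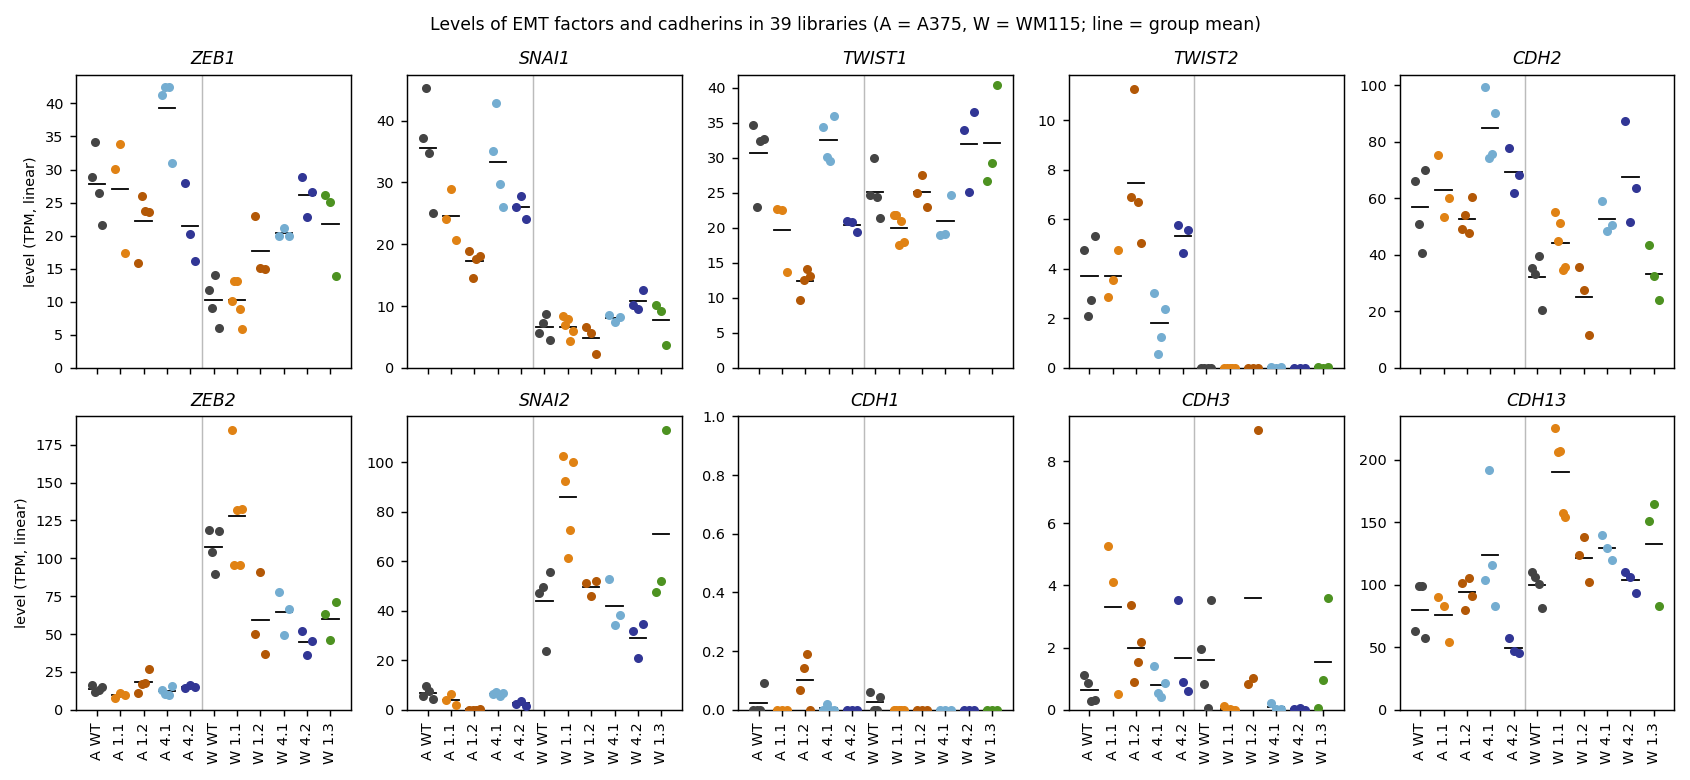
Level of each member in TPM (linear vertical axis) in the 39 libraries, with 1 point per library and a black line at the group mean; groups run from A375 WT to WM115 clone 1.3 along the horizontal axis. ZEB2 and SNAI2 are high in WM115, SNAI1 and TWIST2 are high in A375, and CDH1 stays at or under 0.19 TPM in all libraries.

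The deletion clones of WM115 were compared with WM115 WT to ask how these genes stood once a SOX10 enhancer region was gone. In clone 4.2 ZEB1 rose and ZEB2 fell. ZEB1 was at 28.9, 22.9 and 26.6 TPM in clone 4.2 against 6.04 to 14.01 TPM in WT, so each clone library lay above each WT library. The log2 difference was 1.32 (SE 0.27, limma adjusted p = 0.00294), which is 2.50-fold on the TPM + 1 scale. ZEB2 was at 51.8, 36.4 and 45.3 TPM against 89.8 to 119 TPM in WT, again without overlap, with a log2 difference of -1.26 (SE 0.27, limma adjusted p = 0.00340). With CDH2, these were the 3 of 8 members tested that were called in clone 4.2, where 6.6% of all 16997 genes tested were called. The mitochondrial share was lower in this clone than in WT in each library. With that share as a covariate ZEB1 had a log2 difference of 0.99 (limma adjusted p = 0.0111), just under the minimum difference, and ZEB2 was called. Some markers of other cell types also stood apart from WT in this clone, in both directions. PECAM1 was at 3.27 to 7.45 TPM against at most 2.94 TPM in WT, KRT14 at 1.36 to 2.56 TPM against at most 0.586 TPM, and KRT10 at 58.5 to 76.7 TPM against 40.1 to 55.8 TPM. PDGFRA was at 1.36 to 2.81 TPM against 0.317 to 1.28 TPM. LUM, at 1.56 to 2.33 TPM against 2.73 to 26.4 TPM, lay below each WT library. So did VWF, at 0.007 to 0.011 TPM against 0.064 to 0.365 TPM. CDH5 and KRT5 were listed at 0 in each library of the clone. The part of these markers in the ZEB1 and ZEB2 values was not tested.

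Clone 4.1, with R4 deleted as well, had ZEB1 above and ZEB2 below WT without a call. ZEB1 was at 19.9, 21.2 and 19.99 TPM, above each WT library, with a log2 difference of 0.98 (SE 0.27, limma adjusted p = 0.0144) that stopped short of the minimum difference. ZEB2 was at 78.0, 49.7 and 66.7 TPM, below each WT library, with a log2 difference of -0.74 (SE 0.27, limma adjusted p = 0.0502). No member of the 8 tested was called in clone 4.1, against 7.57% of all genes tested. ZEB1 was called there after median-of-ratios scaling (1.11), with a pseudocount of 0.1 (1.05), and without WT replicate 1 (1.07) or 3 (1.14). The clones 4.2 and 4.1 were set against each other after the data were seen. This gave 0 members called, where 2.63% of all genes were called, with ZEB1 0.34 (SE 0.29) higher in clone 4.2.

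Clones 1.2 and 1.1 of WM115 lack R1. In clone 1.2 ZEB1 was at 23.0, 15.1 and 14.9 TPM, above each WT library (log2 difference 0.76, SE 0.27, limma adjusted p = 0.0509). ZEB2 was at 50.2, 90.7 and 36.6 TPM, and replicate 2 lay within the WT range (log2 difference -0.94, SE 0.27, limma adjusted p = 0.0180). No member was called in clone 1.2, against 7.61% of all genes tested. Without the library that stood apart 2.98% were called, and ZEB1 differed from WT by 0.86 (limma adjusted p = 0.107) and ZEB2 by -0.66 (limma adjusted p = 0.158). ZEB2 was called without WT replicate 3 (-1.03) or without clone 1.2 replicate 2 (-1.299). In clone 1.1 both genes overlapped WT: ZEB1 was at 5.82 to 13.2 TPM and ZEB2 at 95.3 to 185 TPM, with log2 differences of 0.01 (SE 0.24) and 0.21 (SE 0.23). No member was called in clone 1.1 either, against 4.88% of all genes tested.

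These comparisons share the 4 WT libraries. The log2 differences of the R1 clones from each other do not use them. Their SE and adjusted p do, because all WM115 groups were fitted together. ZEB2 was lower in clone 1.2 than in clone 1.1 (log2 difference -1.16, SE 0.25, limma adjusted p = 0.00198), with no overlap, and ZEB1 was 0.75 higher (SE 0.26, limma adjusted p = 0.0303). In this comparison, chosen after the data were seen, 2 of 8 members were called (ZEB2 and CDH3), against 11.8% of all genes tested. Without the library that stood apart ZEB2 differed by -0.87 (limma adjusted p = 0.0273) and no member was called. Clone 1.3, whose deletion the labels leave uncertain, had ZEB1 at 26.1, 25.0 and 13.95 TPM and ZEB2 at 63.1, 45.9 and 71.5 TPM. ZEB2 lay below each WT library there (log2 difference -0.84, SE 0.27, limma adjusted p = 0.162), and ZEB1 differed by 1.02 (SE 0.27, limma adjusted p = 0.0913). No member was called in clone 1.3, where 0.618% of all genes were called. Without its replicate 3, ZEB1 was called (1.298, limma adjusted p = 0.0160).

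In A375, ZEB1 stayed above ZEB2 in 17 of 18 libraries, the exception being replicate 4 of clone 1.2. ZEB1 was at 41.3, 42.5, 42.5 and 31.0 TPM in A375 clone 4.1, the highest group for this gene, but 1 library lay within the WT range (log2 difference 0.49, SE 0.22, limma adjusted p = 0.429). The same-numbered WT libraries were at 28.9, 34.2, 26.4 and 21.6 TPM, each lower than its partner. Libraries of this clone and WT deviated together by number, and this fit did not use that pairing. ZEB2 was at 7.85, 11.3 and 9.91 TPM in A375 clone 1.1, below each WT library, with a log2 difference of -0.50 (SE 0.22, limma adjusted p = 0.451). In the other A375 clones both genes overlapped WT.

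**Figure D2:**
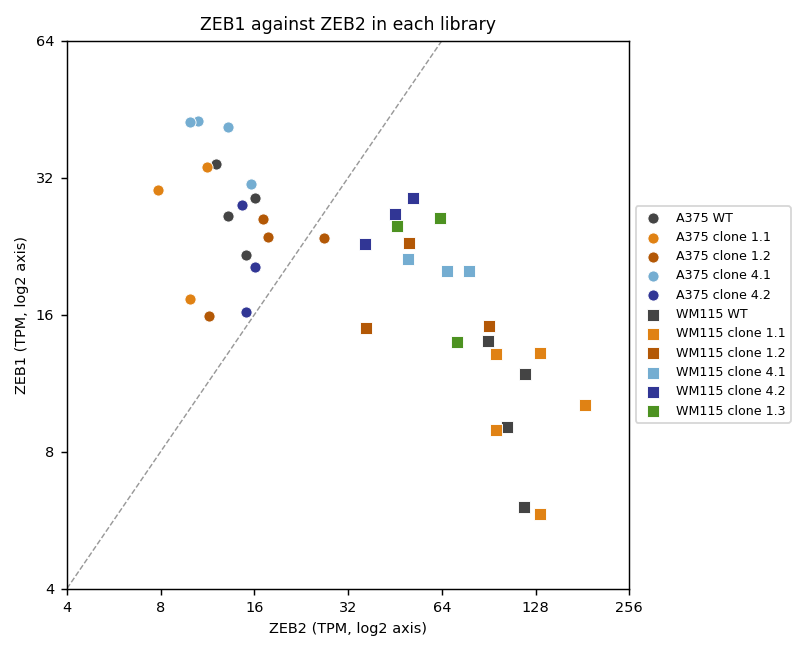
ZEB1 (vertical axis) against ZEB2 (horizontal axis) in TPM, both on log2 axes, with 1 point per library; circles are A375, squares are WM115, and the dashed line marks equal levels. WM115 WT and clone 1.1 lie at the lower right, and the libraries of WM115 clone 4.2 lie up and to the left of them, with ZEB1 at 22.9 to 28.9 TPM and ZEB2 at 36.4 to 51.8 TPM.

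The members called in A375 clones were other factors. SNAI2 and TWIST1 fell in R1 clone 1.2. SNAI2 was at 0.09, 0.06, 0.12 and 0.35 TPM in clone 1.2, where WT had 4.50 to 9.63 TPM. The log2(TPM + 1) difference was -2.71 (SE 0.26, limma adjusted p = 2.97e-06), and the group means were 0.156 and 6.79 TPM. TWIST1, a basic helix-loop-helix factor of mesoderm and neural crest, was at 9.76, 12.5, 14.05 and 13.1 TPM against 22.9 to 34.7 TPM in WT (log2 difference -1.24, SE 0.17, limma adjusted p = 0.000144). SNAI1 was at 19.0, 14.6, 17.7 and 18.1 TPM, also below each WT library, and its log2 difference of -0.97 (SE 0.18, limma adjusted p = 0.00211) was just under the minimum. SNAI1 was called after median-of-ratios scaling (-1.04), with a pseudocount of 0.1 (-1.01), and without WT replicate 4 (-1.12) or clone 1.2 replicate 1 (-1.02). Of 9 members tested, 2 were called in A375 clone 1.2, both lower, against 4.01% of all 16692 genes tested. The genes that start within 5 Mb of SNAI2 had a median log2 difference of 0.48 in this clone (10 genes), against 0.07 over all genes. Over chromosome 8, where SNAI2 lies, the median was 0.05 (557 genes). The part of these surroundings in the SNAI2 value was not tested. Fibroblast markers summed to 10.1 to 14.3 TPM in clone 1.2 against 3.02 to 6.53 TPM in WT, with LUM at 3.69 to 7.45 TPM against 0.845 to 2.47 TPM and COL1A2 at most 0.04 TPM. Their part in the SNAI2 and TWIST1 values was not tested.

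SNAI2 also differed between the A375 R1 clones, which were set against each other after the data were seen. In clone 1.1 it was at 3.79, 6.35 and 2.003 TPM, overlapping WT (log2 difference -0.67, SE 0.28, limma adjusted p = 0.398), and clone 1.2 lay 2.04 below clone 1.1 (SE 0.28, limma adjusted p = 0.000123, 1 of 9 members called against 6.16% of all genes). TWIST1 was at 22.7, 22.6 and 13.8 TPM in clone 1.1, below each WT library, with a log2 difference of -0.63 (SE 0.18, limma adjusted p = 0.130). No member was called in A375 clone 1.1, against 0.731% of all genes. CDH3 differed there by 1.19 (SE 0.45, limma adjusted p = 0.324). Leaving out 1 library of clone 1.1 gave 0.79 to 1.82, and the highest of these, without replicate 3, was called (limma adjusted p = 0.0472).

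The R4 clones of A375 had 0 members called, against 0.653% of all genes in clone 4.1 and 0.473% in clone 4.2. SNAI2 was nevertheless low in clone 4.2, at 2.37, 3.75 and 1.72 TPM and below each WT library (log2 difference -1.10, SE 0.28, limma adjusted p = 0.127), and TWIST1 was too, at 21.0, 20.8 and 19.4 TPM (-0.55, SE 0.18, limma adjusted p = 0.409). In clone 4.1 SNAI2 was at 5.48 to 7.34 TPM and TWIST1 at 29.6 to 35.9 TPM, both near WT. After the data were seen, clone 4.2 was set against clone 4.1. It had SNAI2 lower by 1.08, CDH13 lower by 1.24 and TWIST2 higher by 1.26. This made 3 of 9 members called, against 2.23% of all genes. That count fell to 0 without clone 4.2 replicate 2 or 3, and to 1 without clone 4.1 replicate 2 or 3, without clone 1.2 replicate 3 or with no filter on low values.

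SNAI2 was higher, not lower, in an R1 clone of WM115. It was at 103, 92.5, 61.6, 72.9 and 100.3 TPM in R1 clone 1.1, above each WT library (23.8 to 55.9 TPM), with a log2 difference of 0.99 (SE 0.26, limma adjusted p = 0.0121) that missed the minimum difference. It was called after median-of-ratios scaling (1.13), with a pseudocount of 0.1 (1.002), with the mitochondrial share as a covariate (1.13), and without any of 5 single libraries (WT replicates 1, 2 or 4, or clone 1.1 replicates 3 or 4). SNAI2 lies on chromosome 8, whose tested genes had a median log2 difference of 0.41 in this clone (577 genes), against -0.12 over all genes. Within 5 Mb of SNAI2 the median was 0.43 (11 genes). The part of this shift in the SNAI2 value was not tested. In WM115 clone 4.2 SNAI2 was at 31.9, 20.8 and 34.7 TPM and overlapped WT, as it did in clones 1.2, 4.1 and 1.3. Replicate 3 of clone 1.3, at 113 TPM, was the highest of the 39.

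No other factor was called in a WM115 clone against WT. TWIST1 stayed between 17.5 and 40.3 TPM in the 21 libraries and was called in no clone. It was 0.58 higher in clone 4.2 (33.9, 25.1 and 36.6 TPM) than in clone 4.1 (19.0, 19.1 and 24.7 TPM), without overlap (SE 0.17, limma adjusted p = 0.0490). That comparison of clones was chosen after the data were seen. SNAI1 was at 10.1, 9.46 and 12.7 TPM in clone 4.2, above each WT library, with a log2 difference of 0.66 (SE 0.31, limma adjusted p = 0.135). TWIST2, the close paralog of TWIST1, was listed at 0 in 17 of 21 WM115 libraries and reached at most 0.047 TPM. In A375 it ranged from 0.563 to 11.3 TPM. It was at 6.91, 11.3, 6.71 and 5.03 TPM in A375 clone 1.2, the clone with low TWIST1, and 1 of these libraries lay within the WT range (log2 difference 0.86, SE 0.30, limma adjusted p = 0.0901).

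Among the cadherins, CDH2 rose in WM115 clone 4.2. It was at 87.5, 51.6 and 63.6 TPM against 35.5, 33.3, 39.6 and 20.5 TPM in WT, without overlap, and the log2 difference was 1.05 (SE 0.30, limma adjusted p = 0.0202). This call was lost without WT replicate 4 (0.86, limma adjusted p = 0.0697), without clone 4.2 replicate 1 (0.85, limma adjusted p = 0.0994) and with the mitochondrial share as a covariate (0.73, limma adjusted p = 0.0913). In clone 4.1 CDH2 was at 59.2, 48.6 and 50.6 TPM, above each WT library (log2 difference 0.73, SE 0.30, limma adjusted p = 0.0869). In clone 1.2 it was at 35.8, 27.5 and 11.8 TPM, lowest in the library that stood apart, and its log2 difference from WT went from -0.45 to 0.0022 without that library. A375 clone 4.1 had CDH2 at 99.4, 74.3, 75.8 and 90.3 TPM, above each WT library (log2 difference 0.59, SE 0.17, limma adjusted p = 0.116). The pairing of its libraries with WT by number was not used in this fit.

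CDH13 was the highest member on average in 9 of the 11 groups. In WM115 clone 1.1 it was at 226, 206, 207, 158 and 154 TPM, above each WT library, with a log2 difference of 0.92 (SE 0.17, limma adjusted p = 0.00114), under the minimum difference. It was called after median-of-ratios scaling (1.06), which moved the median of all genes in this comparison from -0.12 to -0.0014. In A375 clone 4.2 it was at 57.4, 46.8 and 45.2 TPM, the lowest group for this gene, and 1 library overlapped WT. An antisense gene, AC009119.1, overlaps the 3′ end of CDH13. Whether the counting used strand is not given in the sources used here, so reads of the pair cannot be told apart, and this holds for ZEB1 with ZEB1-AS1 (1.02 to 7.55 TPM) and ZEB2 with ZEB2-AS1 (at most 1.18 TPM).

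CDH3, found in melanocytes and in the basal layer of the epidermis, had group means of at most 3.61 TPM and varied between libraries of a clone. In WM115 WT it was at 1.95, 0.83, 0.07 and 3.53 TPM. In clone 4.2 it was at 0.01, 0.05 and 0 TPM, below each WT library, with a log2(TPM + 1) difference of -1.15 (SE 0.53, limma adjusted p = 0.129). In clone 1.1 it was at 0.12 TPM or less in all 5 libraries (-1.14, SE 0.46, limma adjusted p = 0.0836). Both values passed the call rule with a pseudocount of 0.1 (-3.13 and -3.12), without WT replicate 3 (-1.508 and -1.501), and without the library that stood apart (adjusted p = 0.0496 and 0.0272). In clone 1.2 CDH3 was at 0.82, 1.03 and 8.99 TPM, highest in the library that stood apart, and it was 1.70 higher than in clone 1.1 (SE 0.50, limma adjusted p = 0.0138) with that library and 0.90 (limma adjusted p = 0.175) without it. In clone 4.1 CDH3 was at 0.21, 0.03 and 0.01 TPM. Genes of chromosome 16, where CDH1, CDH3 and CDH13 lie, had a median log2 difference of -0.46 in clone 4.1 and -0.28 in clone 4.2 (815 genes), against -0.10 over all genes in each. Within 5 Mb of CDH3 the medians were -0.49 and -0.52 (125 genes). The chromosome median was -0.12 in clone 1.1 (all genes -0.12, within 5 Mb -0.02) and -0.23 in clone 1.2 (all genes -0.02, within 5 Mb -0.26). The part of these shifts in the CDH3 values was not tested.

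**Figure D3:**
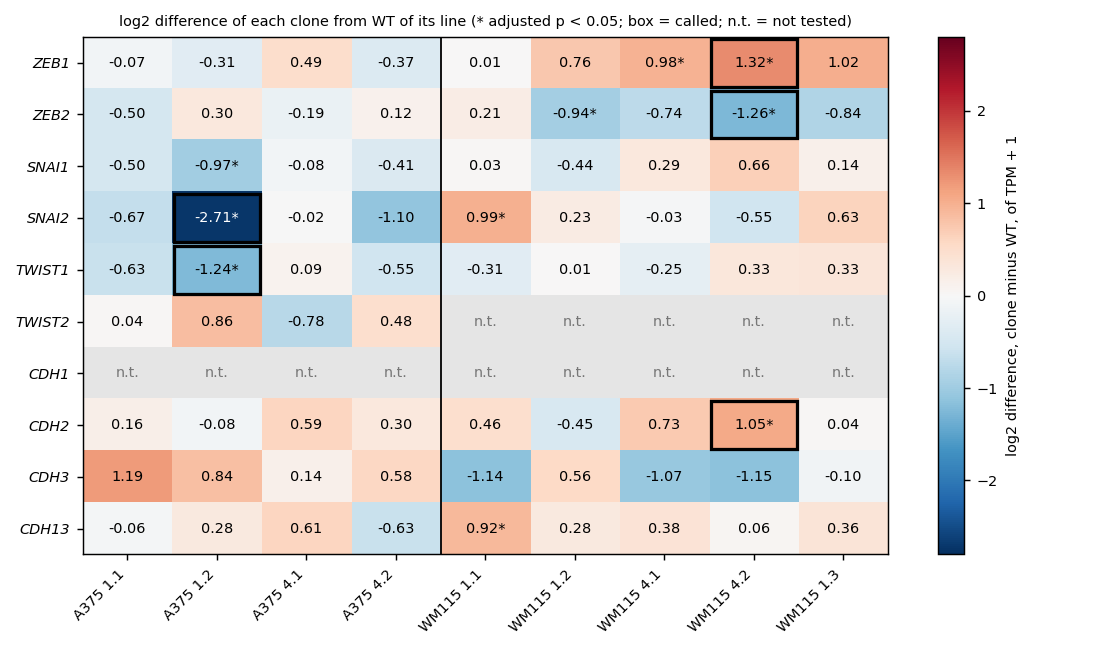
Log2 difference of TPM + 1 between each clone and WT of its line for each member (rows) and comparison (columns), coloured from blue (lower) to red (higher), with an asterisk for an adjusted p under 0.05, a box for a call and n.t. for not tested. Boxes stand at SNAI2 (-2.71) and TWIST1 (-1.24) in A375 clone 1.2 and at ZEB1 (1.32), ZEB2 (-1.26) and CDH2 (1.05) in WM115 clone 4.2.

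Ratios of genes within a library are given as description, with no test. The 1 TPM added to each gene draws a ratio towards 0 where a gene is low, as SNAI2 is in A375 clone 1.2. The log2 ratio of ZEB1 to ZEB2, each as TPM + 1, was 0.92 ± 0.39 (SD, n = 4) in A375 WT and -3.32 ± 0.61 (SD, n = 4) in WM115 WT. In WM115 it was -0.74 ± 0.09 in clone 4.2, -1.598 ± 0.37 in clone 4.1, -1.61 ± 0.78 in clone 1.2 and -1.46 ± 0.74 in clone 1.3 (SD, n = 3 each). The libraries of clone 1.2 other than the one that stood apart were at -2.51 and -1.09. The ratio was -3.53 ± 0.63 in clone 1.1 (SD, n = 5). Every library of clones 4.2, 4.1, 1.2 and 1.3 lay above the highest WT library (-2.60), and clone 1.1 (-4.29 to -2.77) lay below it. All 21 WM115 libraries had more ZEB2 than ZEB1. In A375 the ratio ran from 0.31 ± 0.33 in clone 1.2 (n = 4) to 1.61 ± 0.47 in clone 4.1 (n = 4).

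The ratio of TWIST1 to SNAI2 divided the clones in another way. It was 2.05 ± 0.65 in A375 WT (SD, n = 4) and 3.52 ± 0.22 in A375 clone 1.2 (SD, n = 4), without overlap. In WM115 it was -0.73 ± 0.58 in WT (SD, n = 4), -2.03 ± 0.28 in clone 1.1 (n = 5) and 0.14 ± 0.10 in clone 4.2 (n = 3). Clone 1.1 lay below and clone 4.2 above all WT libraries (-1.35 to 0.04).

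**Figure D4:**
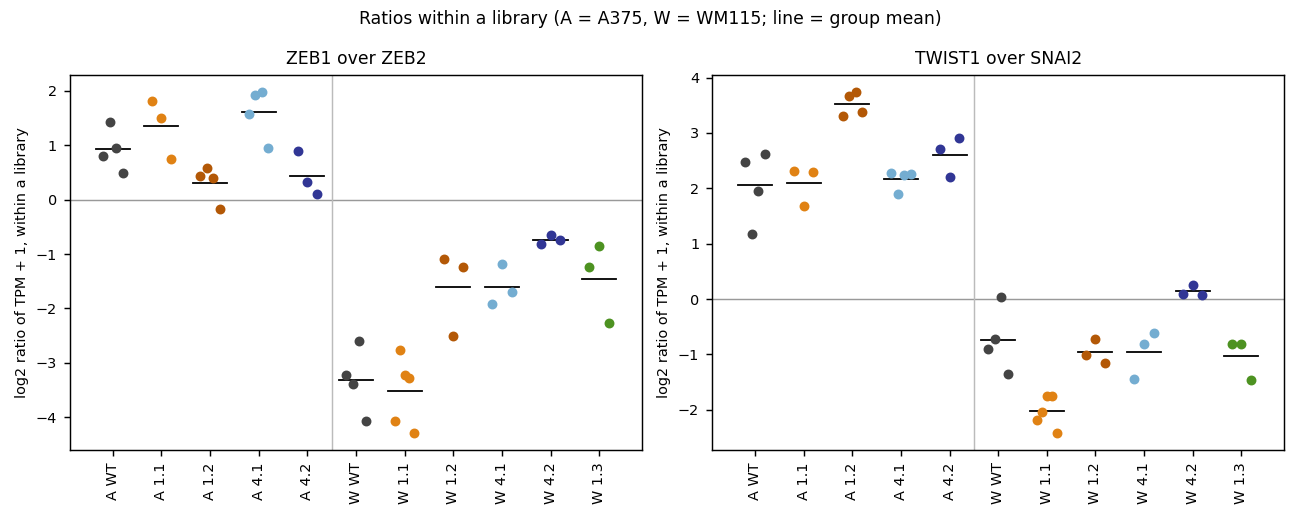
Log2 ratio of ZEB1 to ZEB2 (left) and of TWIST1 to SNAI2 (right), each as TPM + 1, within each library by group, with a black line at the group mean and a grey line at equal levels. On the left, WM115 WT and clone 1.1 lie between -4.29 and -2.60, and the other WM115 clones lie between -2.51 and -0.65; on the right, A375 clone 1.2 is the highest group and WM115 clone 1.1 the lowest.

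The transcript table showed which transcripts carried these levels. Of 25 ZEB1 transcripts, ZEB1-201 held 52.3% of the gene's TPM in A375 and 54.7% in WM115, and ZEB1-203 held 31.8% and 27.2%. ZEB1-201 held 53.4% in WM115 WT and 51.3% in clone 4.2. ZEB2 was spread over more of its 49 transcripts, with ZEB2-224 at 35.4% in A375 and 20.2% in WM115. In WM115 the share of ZEB2-224 was 18.2% in WT (15.2% to 23.4%) and 30.4% in clone 1.2 (26.9% to 34.1%), without overlap, and the libraries other than the one that stood apart were at both ends of that range. In clone 4.2 it was 26.2% (16.7% to 36.2%), with overlap. SNAI1 has 1 listed transcript. TWIST1-201 held 81.6% of TWIST1 in A375 and 87.8% in WM115, and CDH2-201 held 79.5% and 76.2% of CDH2. CDH13 was divided between CDH13-202 (42.1% and 42.3%) and CDH13-201 (30.6% and 28.8%).

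To set the deletions rather than single clones against each other, R4 clones were compared with R1 clones over the 8 clones of both lines, with the clone as the unit and the line as a covariate. No member of 8 tested was called, and 0% of all 15287 genes were (limma), while 658 genes had an unadjusted p under 0.05. CDH2 was 0.64 higher in R4 clones (95% interval 0.14 to 1.15, unadjusted p = 0.0188) and SNAI1 0.59 higher (0.15 to 1.03, unadjusted p = 0.0148), both with a limma adjusted p of 0.996. ZEB1 was 0.51 higher (95% interval -0.07 to 1.09, unadjusted p = 0.0794) and ZEB2 0.29 lower (-0.99 to 0.42 as R4 minus R1), and both intervals included 0. A test of whether R4 against R1 differed between the lines called 0% of genes and no member. The count at an unadjusted p under 0.05 was 390. Its widest value among the members was -2.03 for SNAI2 (95% interval -4.24 to 0.18, limma adjusted p = 0.9997).

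Genes that work with these factors were read from lists set beside the members, with their calls. For some clones the median log2 difference of a list and that of all genes tested are given. Of 18 other cadherins, 4 were tested in each line, and 1 was called in any clone. CDH11, the cadherin of osteoblasts and mesenchyme, rose in WM115 clone 4.2 (1.27, SE 0.34, limma adjusted p = 0.0135). The list median there was 0.98, beside -0.10 over all genes, of which 6.6% were called. Of 4 catenins, which tie cadherins to the cytoskeleton, CTNNB1 (beta-catenin) fell in WM115 clones 1.1 (-1.03, SE 0.18, limma adjusted p = 0.000628) and 4.1 (-1.23, SE 0.20, limma adjusted p = 0.000435). JUP (plakoglobin) rose in A375 clone 1.2 (1.9995, SE 0.48, limma adjusted p = 0.0141). Each was 1 of 4 catenins tested, where 4.88%, 7.57% and 4.01% of all genes were called in the clones as named. The list medians were -0.41, -0.08 and 0.25, beside -0.12, -0.10 and 0.07 over all genes.

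Of 23 epithelial genes, 7 were tested in A375 and 9 in WM115. In WM115 clone 4.2, where ZEB1 rose, 2 of 9 were higher and 2 lower (list median 0.13, all genes -0.10, 6.6% called). CLDN1 (claudin-1, a tight junction protein) fell from 7.20 to 0.846 TPM (-2.10, SE 0.36, limma adjusted p = 0.000720) and ESRP1, an epithelial splicing regulator, from 2.67 to 0.069 TPM (-1.65, SE 0.47, limma adjusted p = 0.0194). PKP3 (a desmosomal plakophilin) rose from 2.83 to 9.52 TPM (1.45, SE 0.21, limma adjusted p = 0.000229) and CLDN3 from 0.848 to 5.21 TPM (1.63, SE 0.46, limma adjusted p = 0.0180). The members of this list thus moved both ways. CLDN1 also fell in WM115 clone 1.1 (-1.51, SE 0.31, limma adjusted p = 0.00236), where ZEB1 overlapped WT, and in clone 1.2 (-1.63, SE 0.36, limma adjusted p = 0.00503; without the library that stood apart -1.10, limma adjusted p = 0.0502). Clone 4.1 had PKP3 (2.81) and CLDN3 (1.65) higher and ESRP1 (-1.53) lower (list median 0.61, all genes -0.10, 7.57% called). In clone 1.1, 1 rose and 1 fell (list median -0.25, all genes -0.12, 4.88% called). In clone 1.2, 1 rose and 1 fell (list median 0.85, all genes -0.02, 7.61% called). Without the library that stood apart 1 rose and 0 fell there (list median 0.80, 2.98% called). In A375 clone 1.2, where SNAI2 fell, CLDN1 rose from 0.604 to 3.24 TPM (1.38, SE 0.29, limma adjusted p = 0.00660). It was 1 of 7 tested (list median 0.85, all genes 0.07, 4.01% called).

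Of 13 other EMT-linked factors, 12 were tested in A375 and 9 in WM115. PRRX1, a homeobox factor of mesenchyme, fell in A375 clone 1.2 from 97.7 to 12.9 TPM (-2.81, SE 0.35, limma adjusted p = 4.89e-05). LOXL2, a lysyl oxidase family enzyme, rose there (1.78, SE 0.47, limma adjusted p = 0.0238), in WM115 clone 1.2 (1.57, SE 0.48; without the library that stood apart 1.84, limma adjusted p = 0.0559, no call) and in WM115 clone 4.2 (1.48, SE 0.48). LOXL3 rose in WM115 clone 4.2 (1.40, SE 0.33). In A375 clone 1.2, 1 of 12 rose and 1 fell (list median 0.05, all genes 0.07, 4.01% called). In WM115 clone 4.2, 2 of 9 rose (list median 0.25, all genes -0.10, 6.6% called). In WM115 clone 1.2, 1 of 9 rose (list median -0.05, all genes -0.02, 7.61% called), and 0 did without the library that stood apart (2.98% called).

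Differentiation genes were read in the same way. Of 7 melanocytic genes tested in WM115, 0 rose in any clone. In clone 1.1, 1 fell (list median -0.81, all genes -0.12), where 4.88% of all genes were called. In clone 1.2, 4 fell (list median -2.44, all genes -0.02, 7.61% called), and 2 did without the library that stood apart (list median -0.97, 2.98% called). In clone 4.1, 6 fell (list median -3.40, all genes -0.10, 7.57% called), and in clone 4.2, 5 did (list median -2.795, all genes -0.10, 6.6% called). In clone 1.3, 0 were called (list median -0.41, all genes -0.03, 0.618% called). MITF, the regulator of pigment cell differentiation, went from 128 TPM in WT to 10.5 TPM in clone 4.1 and 16.5 TPM in clone 4.2. SOX10 was at 360 to 465 TPM in clone 4.1 and 321 to 506 TPM in clone 4.2. Both overlapped WT (449 to 553 TPM). Of 6 genes of the undifferentiated state, 2 rose in clone 4.2 (list median 0.98), 2 in clone 4.1 (1.098) and 3 in clone 1.2 (1.44), beside the same medians and shares over all genes. Without the library that stood apart 3 rose in clone 1.2 (list median 1.54). In clone 1.1, 1 rose (AXL, 1.29) and 1 fell (EGFR, -1.81), with a list median of 0.36. In A375 clone 1.2, 3 of the 6 rose (AXL, EGFR and SOX9, list median 1.33, all genes 0.07, 4.01% called) and 0 of 3 melanocytic genes tested were called. SOX10 was at 406 to 473 TPM there, against 630 to 706 TPM in WT. In A375 clone 1.1, 1 of the 6 rose (list median 0.61) and 1 of 3 melanocytic genes fell (list median -0.46, all genes 0.01, 0.731% called).

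For each member the genes of most similar pattern were read over the 39 libraries, as Pearson's r of log2(TPM + 1) after the mean of each line was taken off. This is a description, because libraries share clones. ZEB1 was nearest to SFRP1 (0.83) and TUSC3 (0.83), and ZEB2 to IL6R (0.84) and ATP6V1B2 (0.83). SNAI1 was nearest to EGR1 (0.83), an immediate early gene, and TNC (0.83), SNAI2 to PDZRN3 (0.81) and IER5L (0.81), and TWIST1 to PRRX1 (0.81). CDH2 was nearest to HM13 (0.88), CDH3 to PLCD4 (0.87) and CDH13 to its antisense neighbour AC009119.1 (0.98).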

How the data were processed

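RNA abundance was measured in 39 libraries. The authors deposited gene and transcript tables in TPM. The submitters' processing notes name DRAGEN and GRCh38; the annotation and how reads were counted are not given in the sources used here. Per the labels' protocols, polyadenylated RNA was captured and cDNA was primed with random hexamers. The gene table has 60871 lines, and lines that repeat an identifier hold the same values and were used once. Each table has 6 further value columns whose names fit no sample, and these were left out. Pairs of libraries of a group had r between 0.940 and 0.990, and 0 pairs were identical. Depth is unknown.

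A linear model of log2(TPM + 1) was fitted with limma 3.58.1 under R 4.3.3 (empirical Bayes with a variance trend, two-sided, Benjamini-Hochberg over all genes tested), each line with 1 coefficient per group. Genes reaching 1 TPM in 3 or more libraries of the fit were tested. The fit was tested on simulated data with known changes. A call needed an adjusted p under 0.05 and a log2 difference of at least 1. The 10 members and the lists were chosen with earlier results of these data known. Comparisons of clones of the same region with each other were chosen after the data were seen. All members were named, and from each list up to 4 genes, those called in the most comparisons. Positions are from GENCODE 29. Same-numbered libraries deviated together in A375 clone 4.1 and WT (r of 0.33 to 0.78 over 4 pairs), a pairing read from the data and not from the labels, and in no other comparison with WT. The alternatives were another pseudocount, no filter, median-of-ratios scaling, the mitochondrial share as a covariate, a replicate block, only the 2 groups compared fitted, and leaving out each library or clone. Intervals of 95% used the t distribution with limma's total degrees of freedom.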

Additional observations from a re-analysis of the deposited data

Results flagged for a closer look

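In A375 clone 4.1, ZEB1 was at 31.0 TPM in replicate 4, while the other 3 libraries were at 41.3 to 42.5 TPM. In A375 WT, TWIST1 was at 22.9 TPM in replicate 2, while the other 3 libraries were at 32.4 to 34.7 TPM. These were 2 of 41 pairs of a gene and a group examined for a library far from the others. Chance alone marks about 1 such pair in 20. Groups of 3 libraries, such as WM115 clone 1.2, were not examined in this way.

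SNAI2 in the R1 clones lay on opposite sides of the WT mean in the lines. All 7 libraries of the A375 R1 clones lay below the WT mean (mean log2 difference -1.84) and all 8 libraries of the WM115 R1 clones lay above it (0.70), so the lines were 2.54 apart. This difference between the lines was not tested. Genes within 5 Mb of SNAI2 had median log2 differences of 0.43 and 0.34 in WM115 clones 1.1 and 1.2. Over all genes the medians were -0.12 and -0.02. In A375 clones 1.1 and 1.2 the medians within 5 Mb were 0.08 and 0.48, against 0.01 and 0.07 over all genes. The part of these surroundings in the SNAI2 values was not tested. Of the 4 clones, A375 clone 1.2 was called, A375 clone 1.1 and WM115 clone 1.2 overlapped WT, and WM115 clone 1.1 missed the minimum difference. Without WM115 WT replicate 3, the difference of WM115 clone 1.2 from WT went from 0.23 to -0.035. It was 1 of 16 contrasts examined in this way.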

How the results depend on the processing

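Of 3130 log2 differences of single members recomputed, 3059 stayed on their side of the call rule, 39 lost a call, 32 gained one and 0 called values reversed. Of the 3059, 76 were uncalled values that changed sign. The number of members called changed as follows. In WM115 clone 1.1 it rose from 0 to 2 with a pseudocount of 0.1, to 2 with median-of-ratios scaling and to 1 with the mitochondrial share as a covariate, and leaving out 1 library gave 0 to 1. In WM115 clone 4.1 it rose from 0 to 1 with a pseudocount of 0.1 and to 1 with median-of-ratios scaling, and leaving out 1 library gave 0 to 1. In WM115 clone 4.2 it fell from 3 to 1 with the mitochondrial share as a covariate, and leaving out 1 library gave 2 to 4. Leaving out 1 library gave 0 to 1 in A375 clone 1.1, in WM115 clone 1.2 and in WM115 clone 1.3, and 2 to 3 in A375 clone 1.2. Between WT lines the count fell from 5 to 1 with the mitochondrial share as a covariate. In A375 clone 4.2 against 4.1 it fell from 3 to 1 with no filter, and leaving out 1 library gave 0 to 3. In WM115 clone 1.2 against 1.1 leaving out 1 library gave 0 to 3, with 0 without clone 1.2 replicate 3. Single calls moved as well. SNAI1 gained a call in A375 clone 1.2 with a pseudocount of 0.1 and with median-of-ratios scaling. CDH3 gained a call in WM115 clone 4.2 with a pseudocount of 0.1. CDH2 gained a call in WM115 clone 1.2 against 1.1 with median-of-ratios scaling. SNAI2 lost its call in A375 clone 4.2 against 4.1 with a pseudocount of 0.1. The cause of these changes was not tested.

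A fit with a replicate block (the replicate number as a term) used only the 2 groups compared, so it was set beside a fit of those groups without the block, chosen after seeing the data. Members called in A375 clone 4.2 against 4.1 went from 3 to 0 with only those groups fitted and were 0 with the block. In WM115 clone 1.2 against 1.1 they stayed 2 with only those groups and were 0 with the block, and in WM115 clone 1.1 against WT they rose to 1 (CDH3) with only those groups and were 0 with the block. CDH2 in WM115 clone 4.2 was called with only those groups and lost its call with the block (0.86, limma adjusted p = 0.0704). Numbers did not pair these libraries. In A375 clone 4.1 against WT numbers did pair them, and no member was called in any of these fits. The widest member difference with all groups fitted was -0.78 (TWIST2), under the minimum difference, so the rule allowed no call there. Calls over all genes in that comparison were 109 with all groups, 75 with only the pair of groups and 242 with the block. In the same order, calls over all genes were 122, 34 and 0 in A375 clone 1.1, 669, 656 and 376 in clone 1.2, 79, 36 and 4 in clone 4.2, 1028, 855 and 414 in clone 1.2 against 1.1, and 373, 197 and 0 in clone 4.2 against 4.1. In WM115 they were 1293, 770 and 81 in clone 1.2, 1286, 1355 and 655 in clone 4.1, 1122, 1124 and 410 in clone 4.2, 105, 58 and 0 in clone 1.3, 1998, 1819 and 361 in clone 1.2 against 1.1, and 447, 424 and 288 in clone 4.2 against 4.1. A pseudocount of 0.1 moved calls over all genes to 166 in A375 clone 4.1 and from 829 to 1447 in WM115 clone 1.1, no filter to 219 in A375 clone 4.2 against 4.1, and the mitochondrial share to 703 in WM115 clone 4.1, 724 in clone 4.2 and from 3658 to 710 between WT lines. Without clone 1.2 replicate 3, all-gene calls were 501 in WM115 clone 1.2, and without clone 1.3 replicate 3 they were 321 in clone 1.3.

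Median-of-ratios scaling moved the share of calls that were higher from 25.0% to 39.2% in WM115 clone 1.1, 42.3% to 56.4% in clone 4.1 and 38.2% to 50.6% in clone 4.2, as the median of all genes moved from -0.12, -0.10 and -0.10 to about 0. TPM without counts gives no depth, so low values such as those of CDH3, TWIST2 in WM115 and SNAI2 in A375 clone 1.2 have no counting error here.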
